A study of Homo sapiens with 30 samples.

Results

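The 40 genes described here encode the machinery of mitosis, and they were taken by symbol from a fixed list: every probe set whose platform symbol is exactly one of the 40 names counts as a member. These are 63 of the 22277 probe sets in the table (22215 were tested, after 62 array controls were left out), and 40 of the 11963 genes that have a probe set naming a single gene. Each gene was counted through its brightest probe set by mean over all arrays, and 27 genes have 1 probe set, 6 have 2, 5 have 3, 1 has 4 and 1 has 5. All 40 genes were measured, and no filter on low values was applied. The samples are RNA from a mixed culture of Caco-2 cells, a human colorectal carcinoma line that comes to resemble absorptive enterocytes, and HT29-MTX cells, a mucus-forming colon carcinoma line selected with methotrexate. The lines were seeded at 75% and 25% and held on Transwell membranes for 14 days, past confluence. Particles were then put on the apical side, either multi-walled carbon nanotubes (MWCNT) or titanium dioxide nanobelts (TiO2-NB), each at a dose of 10 and of 100 µg/ml, and wells were harvested after 24 h or after 1 h. Control wells of both times had fresh medium and no particle. The 10 groups have 3 biological replicates each, 30 arrays in all. Flasks of each line were pooled before the cells were mixed and plated, and the labels name no separate culture days, so the p-values measure the spread between wells that may share a seeding.

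Mitotic genes are switched on late in the cell cycle, in G2 and M, and kept off in resting cells. Complexes built on the MuvB core do both: as DREAM, with a retinoblastoma relative and E2F4, they repress these genes in quiescence, and with B-MYB and FOXM1 they activate them before mitosis. In many such promoters the MuvB core binds a short element, the cell cycle genes homology region (CHR), which often lies downstream of CCAAT boxes bound by the factor NF-Y. In the intestine, dividing cells sit in the crypt, and cells that differentiate leave the cycle. The transcripts therefore serve as a readout of the dividing fraction of a culture. In bulk RNA, fewer dividing cells and less of these RNAs per dividing cell cannot be told apart.

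Promoters are shown because the members share their late cell cycle timing and most of them moved together here. RefSeq start sites on GRCh38.p14 gave 41 promoters for 33 of the 40 genes, each from 250 bases before to 50 bases after the start. The letters TTTGAA, the core of the CHR, were present on either strand in 28 of the 41 promoters (68.3%), against 15.2% of all 35116 promoters in the same table. The letters CCAAT were present on either strand in 34 of the 41 (82.9%), against 34.6% of all promoters. Both occurred in 25 of the 41 (61.0%, from 22 genes), against 5.9% of all promoters. These matches describe letters in a window and are not evidence of binding. The 200 bases before the start are printed for KIF20A (chr5:138178912-138179111) and HMMR (chr5:163460432-163460631), which were called in all 4 exposures at 1 h, and for PLK1 (chr16:23678689-23678888), which was called in none of the comparisons. All 3 are on the plus strand, written 5′ to 3′, and capitals mark TTTGAA and CCAAT on either strand (CCAAT on the minus strand reads ATTGG).
KIF20A: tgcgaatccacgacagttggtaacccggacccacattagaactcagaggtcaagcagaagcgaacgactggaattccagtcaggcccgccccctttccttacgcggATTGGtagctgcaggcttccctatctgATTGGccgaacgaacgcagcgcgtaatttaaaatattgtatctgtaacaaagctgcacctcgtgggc
HMMR: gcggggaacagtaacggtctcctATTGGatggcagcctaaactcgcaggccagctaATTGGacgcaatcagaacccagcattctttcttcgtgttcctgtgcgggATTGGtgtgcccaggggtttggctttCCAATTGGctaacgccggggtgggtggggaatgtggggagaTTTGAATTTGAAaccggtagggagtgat
PLK1: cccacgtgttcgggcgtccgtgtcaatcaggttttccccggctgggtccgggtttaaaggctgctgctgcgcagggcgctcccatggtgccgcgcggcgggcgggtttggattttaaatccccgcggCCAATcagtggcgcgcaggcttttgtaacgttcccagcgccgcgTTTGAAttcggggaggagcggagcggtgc
The KIF20A stretch holds 2 CCAAT matches and 0 TTTGAA matches, the HMMR stretch 5 and 2, and the PLK1 stretch 1 and 1. In HMMR, matches to CCAAT on opposite strands overlap once. KIF20A, with no TTTGAA in these letters, and HMMR, with both motifs, were called at 1 h, and PLK1, with both motifs, was not. These 3 stretches are examples, and a link between motifs and calls was not tested.

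Array medians lay between 6.45 and 6.49 on the log2 scale, and arrays of the same group correlated at 0.997 to 0.999. All 11 enterocyte markers, such as VIL1 and APOA1, and all 5 epithelial markers stood above the median gene, as did 4 of 8 goblet markers, including TFF3 and AGR2. MUC2, MUC5AC, MUC5B and FCGBP were below it. Of markers of cells that the culture should lack, 1 of 5 leukocyte genes (LYZ, at 11.3), 2 of 5 fibroblast genes (COL1A1, at 7.70, and LUM, at 7.73) and 0 of 3 endothelial genes stood above the median gene, and PTPRC, the pan-leukocyte marker, read 3.63. The probe set for 18S ribosomal RNA was higher in every exposed group than in the control at 1 h, by 0.80 to 1.51, and that for 28S by 0.34 to 0.65.

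At 24 h, most mitotic genes stood higher than at 1 h in every exposed series, and none was called lower. Of the 40 genes, 32 rose with 10 µg/ml MWCNT (median log2 change 0.36), against 13.1% of all genes. In the 100 µg/ml MWCNT series 22 rose (median 0.19), against 14.2% of all genes. For 10 µg/ml TiO2-NB 27 rose (median 0.31), against 16.5% of all genes, and with 100 µg/ml TiO2-NB 29 rose (median 0.30), against 16.8%. In medium alone 7 rose (median 0.11), against 8.79% of all genes. The median change of all genes lay between -0.01 and 0.03 in these 5 comparisons. No arrays are shared among them.

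A gene was called where limma's adjusted p (Benjamini-Hochberg over all probe sets) was under 0.05. By gene, 19 members rose in all 4 exposed series, 6 in 3, 5 in 2, 6 in 1 and 4 in none, where 8.26% of all genes rose in all 4. The arrays of the times did not overlap, with every 24 h array above every 1 h array, for 33, 26, 29 and 33 of the 40 genes with 10 and 100 µg/ml MWCNT and 10 and 100 µg/ml TiO2-NB, in this order, against 21.8%, 22.1%, 20.8% and 24.0% of all genes. In medium alone this held for 13 of 40, against 17.0%. Every 24 h array was below every 1 h array for 1 member with 100 µg/ml MWCNT (MKI67, -0.16) and 1 in medium (CDC20, -0.09), neither of them called, against 18.1% and 20.6% of all genes, and for 0 in the other 3 series, against 18.3%, 20.9% and 19.6%. The 24 h wells and the 1 h wells differ in harvest as well as in exposure time, and these cannot be told apart. Between the times, 18S differed by -0.66, -1.18, -0.17 and -0.34 in the exposed series and by 0.27 in medium (24 h minus 1 h, exact permutation p = 0.1, 0.1, 0.8, 0.5 and 0.2, and no p under 0.1 is possible with so few arrays). The 28S probe set differed by -0.58, -0.68, -0.39 and -0.52 in the exposed series and by -0.12 in medium (exact permutation p = 0.1, 0.1, 0.3, 0.1 and 0.3). When 18S entered the fit as a covariate, an alternative added after seeing the data, 30, 18, 27 and 29 members rose in these series and 6 in medium alone.

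**Figure D1:**
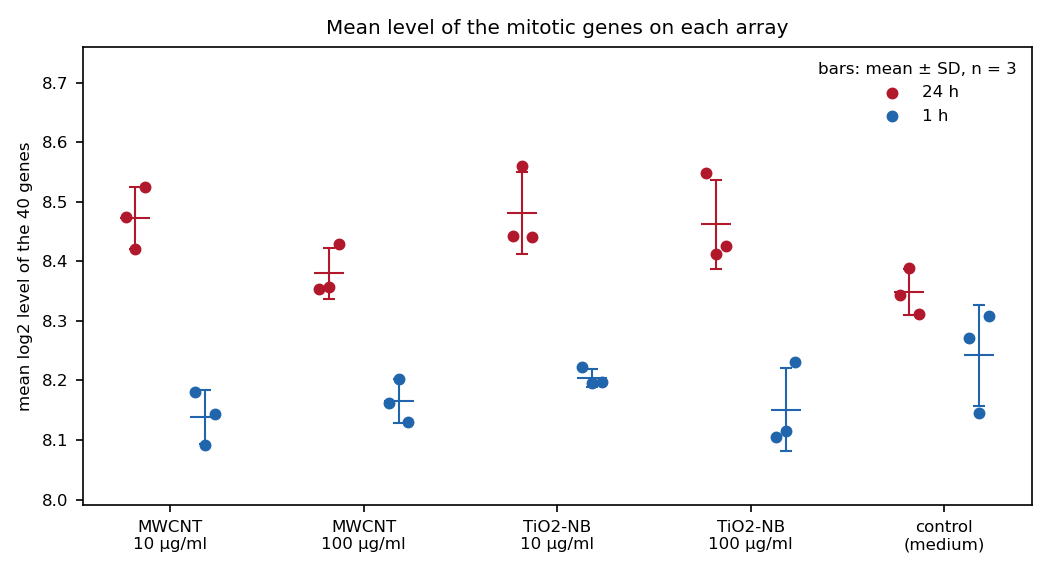
Mean log2 level of the 40 genes on each array (points), with the group mean and SD (n = 3), at 24 h (red) and 1 h (blue). Every 24 h array of an exposed group, from 8.35 to 8.56, lies above every exposed array at 1 h, from 8.09 to 8.23. The control arrays read 8.34, 8.39 and 8.31 at 24 h, against 8.27, 8.15 and 8.31 at 1 h.

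Averaged over the 40 genes, the groups were ordered by time. The mean was 8.47 ± 0.052 at 24 h and 8.14 ± 0.045 at 1 h with 10 µg/ml MWCNT (SD, n = 3). It was 8.38 ± 0.043 at 24 h and 8.17 ± 0.036 at 1 h with 100 µg/ml MWCNT. With TiO2-NB it was 8.48 ± 0.068 at 24 h and 8.20 ± 0.015 at 1 h at 10 µg/ml, and 8.46 ± 0.075 at 24 h and 8.15 ± 0.070 at 1 h at 100 µg/ml. Controls averaged 8.35 ± 0.039 at 24 h and 8.24 ± 0.085 at 1 h, the smallest step of the 5.

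KIF20A, a kinesin of the central spindle that carries the chromosomal passenger complex to the midzone, had the largest rise of any member in 3 of the 4 exposed series. In the 10 µg/ml MWCNT series it read 8.32, 8.17 and 8.44 at 24 h, against 7.62, 7.54 and 7.58 at 1 h. In the 100 µg/ml MWCNT series it read 8.30, 8.23 and 8.26 at 24 h, against 7.67, 7.66 and 7.60 at 1 h. No 24 h array of either series came near a 1 h array. With TiO2-NB it read 8.21, 8.41 and 8.21 at 24 h, against 7.66, 7.69 and 7.72 at 1 h at 10 µg/ml, and 8.34, 8.16 and 8.21 at 24 h, against 7.55, 7.56 and 7.72 at 1 h at 100 µg/ml. In controls it read 8.13, 8.16 and 8.10 at 24 h, against 7.93, 7.85 and 7.999 at 1 h. The groups were again separate in each of these series, with a smaller gap in medium. The log2 rises were 0.73, 0.62, 0.59 and 0.63, each ± 0.064 (SE, n = 3), or 1.50-fold to 1.66-fold, with limma adjusted p of 1.01e-07 or less. In controls the rise was 0.20 ± 0.064 (adjusted p = 0.0283).

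HMMR, a spindle-pole protein first known as a hyaluronan receptor, behaved in a similar way. MWCNT wells read 9.27, 9.32 and 9.46 at 24 h, against 8.83, 8.79 and 8.85 at 1 h, at 10 µg/ml, and 9.34, 9.32 and 9.46 at 24 h, against 8.83, 8.84 and 8.83 at 1 h, at 100 µg/ml. TiO2-NB wells read 9.44, 9.55 and 9.28 at 24 h, against 8.87, 8.74 and 8.88 at 1 h, at 10 µg/ml, and 9.43, 9.42 and 9.46 at 24 h, against 8.81, 8.78 and 8.86 at 1 h, at 100 µg/ml. Its groups did not overlap in any of the 5 series. The rises were 0.52 and 0.54 with 10 and 100 µg/ml MWCNT and 0.60 and 0.62 with 10 and 100 µg/ml TiO2-NB (each ± 0.062). Each passed limma's test with adjusted p of 5.67e-07 or less. In controls the change was 0.14 (adjusted p = 0.124), with arrays at 9.28, 9.27 and 9.19 at 24 h, against 9.15, 8.98 and 9.18 at 1 h.

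**Figure D2:**
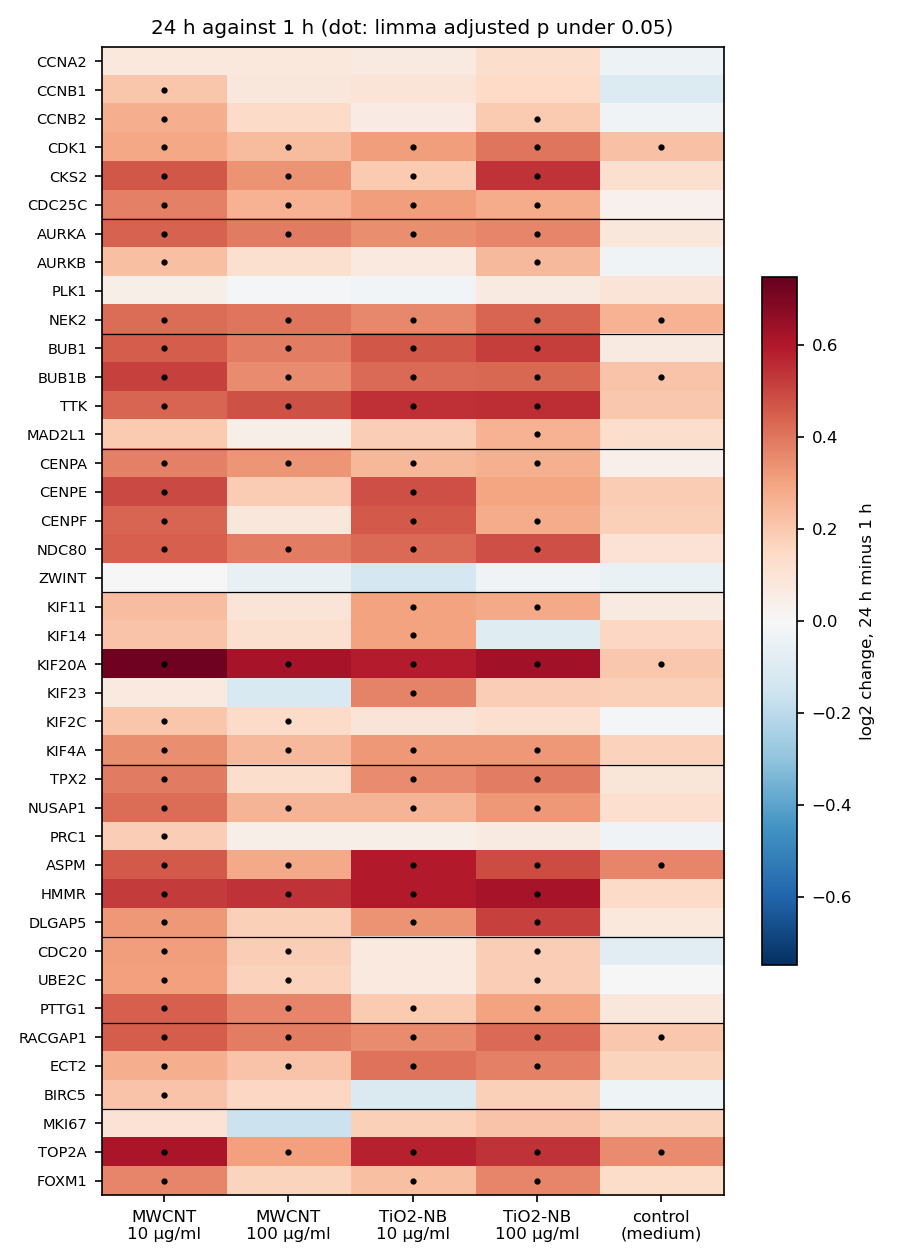
Log2 change at 24 h against 1 h for each of the 40 genes (rows, in blocks by role) in each exposed series and in medium alone (columns). Red is higher at 24 h, blue is lower, and a dot marks a limma adjusted p under 0.05. The exposed columns hold 32, 22, 27 and 29 dots and the control column 7.

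Among CDK1 and its partners, the kinase that drives entry into mitosis moved in every series. CDK1 rose by 0.29, 0.24, 0.31 and 0.40 (each ± 0.057) with 10 and 100 µg/ml MWCNT and 10 and 100 µg/ml TiO2-NB, in this order, and by 0.22 in medium. CKS2, a small subunit that binds the kinase, rose by 0.46, 0.34, 0.20 and 0.54 and CDC25C, the phosphatase that activates it, by 0.38, 0.26, 0.31 and 0.28. Both stayed under the threshold in medium, at 0.12 and 0.03. The cyclins moved less. CCNB1 rose by 0.21 with 10 µg/ml MWCNT (adjusted p = 0.0133) and did not pass elsewhere, at -0.10 to 0.15. CCNB2 rose in 2 series, by 0.27 and 0.20, and CCNA2, whose protein acts from S phase onward, in none by its brighter probe set (-0.04 to 0.13). Its other probe set rose with 10 µg/ml MWCNT, by 0.20 (adjusted p = 0.0129). In all, 5, 3, 3 and 4 of the 6 genes of this group rose, and 1 in medium.

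Of the 4 mitotic kinases, 3, 2, 2 and 3 rose in the exposed series and 1 in medium. AURKA, the centrosomal Aurora kinase, rose in all 4, by 0.45, 0.39, 0.35 and 0.36 (each ± 0.049), with a value of 0.08 in medium. Its 24 h arrays read 10.68, 10.63 and 10.72 with 10 µg/ml MWCNT, 10.63, 10.57 and 10.64 with 100 µg/ml MWCNT, 10.65, 10.69 and 10.64 with 10 µg/ml TiO2-NB, 10.71, 10.60 and 10.62 with 100 µg/ml TiO2-NB and 10.55, 10.62 and 10.49 in controls. All 12 exposed arrays at 24 h were above the exposed arrays at 1 h, which read 10.17 to 10.37. NEK2, which separates the centrosomes, rose in all 5 series, by 0.42, 0.40, 0.36 and 0.44 with particles and by 0.26 in medium. AURKB, the kinase of the chromosomal passenger complex, rose with 10 µg/ml MWCNT (0.22) and with 100 µg/ml TiO2-NB (0.24). PLK1, which acts at centrosomes and kinetochores, passed in no series, with changes of -0.02 to 0.10.

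The spindle checkpoint holds anaphase until all kinetochores are attached, and 3, 3, 3 and 4 of its 4 measured genes rose in the exposed series. BUB1B rose by 0.51, 0.35, 0.42 and 0.43 with particles and by 0.21 in medium (adjusted p = 0.0205). BUB1, a related checkpoint kinase, rose by 0.46, 0.38, 0.47 and 0.52 and read 0.07 in medium. TTK, the kinase at the top of the checkpoint, rose by 0.43, 0.48, 0.55 and 0.55 (each ± 0.091) and read 0.20 in medium (adjusted p = 0.135). MAD2L1, the inhibitor of CDC20, rose only with 100 µg/ml TiO2-NB among the 5 series (0.26).

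At the kinetochore, where chromosomes meet microtubules, 4, 2, 4 and 3 of 5 genes rose and 0 in medium. NDC80, the outer subunit that grips microtubules, rose by 0.45, 0.38, 0.42 and 0.49. It read 7.59, 7.46 and 7.55 at 24 h with 10 µg/ml MWCNT, against 7.06, 6.99 and 7.20 at 1 h, with no overlap. CENPA, the histone that marks centromeres, rose by 0.38, 0.33, 0.25 and 0.26. CENPE, a motor of the kinetochore, rose with 10 µg/ml of either particle (both 0.49) and not with 100 µg/ml, where it read 0.19 and 0.30. The difference between doses was not called for it. CENPF rose in 3 series, by 0.28 to 0.46, and ZWINT, a kinetochore scaffold, in none.

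The 6 motors, KIF20A included, were mixed, and 3, 3, 5 and 3 of them rose with particles and 1 in medium. KIF4A, a chromosome-arm motor, rose by 0.35, 0.24, 0.33 and 0.33. KIF11, which pushes the spindle poles apart, rose with 10 and 100 µg/ml TiO2-NB, by 0.30 and 0.28. KIF2C, which shortens microtubules, rose with MWCNT, by 0.21 and 0.15, and through its other probe set also with 10 and 100 µg/ml TiO2-NB, by 0.23 and 0.22. KIF14 and KIF23, motors of cytokinesis, rose with 10 µg/ml TiO2-NB, by 0.30 and 0.37, and in no other series.

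All 6 spindle assembly genes rose with 10 µg/ml MWCNT, and 3, 5 and 5 in the other exposed series, against 1 in medium. ASPM, a spindle-pole protein, rose by 0.46, 0.29, 0.60 and 0.49 with particles and by 0.37 in medium (adjusted p = 0.0136). NUSAP1, which bundles microtubules near chromatin, rose by 0.42, 0.25, 0.25 and 0.32. TPX2, the activator of Aurora A, and DLGAP5, which stabilises kinetochore fibres, rose in 3 series each, by 0.35 to 0.39 and by 0.33 to 0.51. PRC1, which crosslinks midzone microtubules, passed once, at 0.19.

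Anaphase and cytokinesis genes rose too. PTTG1, the securin that restrains separase, rose by 0.45, 0.37, 0.20 and 0.30. CDC20, which activates the anaphase-promoting complex, and UBE2C, its ubiquitin-conjugating enzyme, each rose in 3 series, by 0.19 to 0.31 and 0.17 to 0.31, and did not pass with 10 µg/ml TiO2-NB (both 0.07). RACGAP1, the partner of KIF23 in the centralspindlin complex, rose by 0.46, 0.38, 0.35 and 0.42 and by 0.20 in medium. ECT2, the exchange factor it recruits, rose by 0.27, 0.21, 0.41 and 0.38. BIRC5 (survivin) rose with 10 µg/ml MWCNT (0.21) and read -0.11 to 0.18 elsewhere, though another of its probe sets rose with 100 µg/ml TiO2-NB (0.31).

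TOP2A, the topoisomerase that untangles chromosomes, rose by 0.62, 0.31, 0.58 and 0.54 with particles and by 0.35 in medium (each ± 0.079). In the 100 µg/ml TiO2-NB series it read 9.65, 9.46 and 9.41 at 24 h, against 8.93, 8.86 and 9.10 at 1 h. Its dimmer probe set was called lower in that series, the only such call among the 63 probe sets at 24 h against 1 h: 6.20, 5.36 and 5.63 at 24 h, against 6.63, 6.78 and 7.02 at 1 h. That probe set fell by 1.08 ± 0.19 (adjusted p = 9.40e-05) and was also below the 24 h control, at 6.95, 7.15 and 7.06, by 1.33 (adjusted p = 4.95e-05). The probe sets of this gene therefore disagree at 24 h with 100 µg/ml TiO2-NB, and no cause was tested. The dimmer one read -0.34 with 100 µg/ml MWCNT and -0.13 with 10 µg/ml TiO2-NB without passing. Other dim probe sets of genes that rose also read below 0 without passing, among them 2 of BUB1 (both -0.04) and 1 of CENPF (-0.03) with 100 µg/ml TiO2-NB. FOXM1, the activator of the program, rose in 3 series, by 0.23 to 0.37, and not with 100 µg/ml MWCNT (0.17, adjusted p = 0.116). MKI67, the Ki-67 proliferation antigen, did not pass in any series by its brightest probe set (-0.16 to 0.22). One of its 3 other probe sets rose with 10 and 100 µg/ml TiO2-NB, by 0.28 and 0.29 (adjusted p = 0.0283 and 0.0224), and in medium, by 0.27 (adjusted p = 0.0477).

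The 3 members with the highest mean level over all arrays were CDK1 (10.8), UBE2C (10.8) and PTTG1 (10.6), and the 3 with the lowest were CENPE (5.99), PLK1 (6.28) and KIF23 (6.36). Probe sets differ in how well they hybridise, so these levels give no order of transcript amounts. The probe sets that stand for PTTG1, FOXM1 and CENPA carry the manufacturer's mark for probes that can match other transcripts. One more probe set names CENPA together with a second gene and was not used.

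Counting all 63 probe sets, 41, 27, 36 and 41 rose in the exposed series, with 1 fall, and 10 rose in medium. The share over all probe sets is not given here. Of all genes, each by its brightest probe set, 13.1%, 14.2%, 16.5% and 16.8% rose in the exposed series and 8.79% in medium. Against these shares, a second list of 55 mitotic genes had 28, 18, 24 and 31 rises, and 9 in medium. It had 0, 1, 4 and 1 falls, and 2 in medium. KIF18B, a microtubule plus-end kinesin, rose by 0.34 to 0.35 in 3 of these series and by 0.31 in medium, and CKAP5, a microtubule polymerase, by 0.27 in medium. KIF20B, a kinesin of cytokinesis, rose by 0.47 and 0.46 with 10 µg/ml MWCNT and TiO2-NB. CDCA3 rose by 0.30 and 0.31 with 100 µg/ml MWCNT and TiO2-NB, and SMC4, a condensin subunit, by 0.45 with 10 µg/ml TiO2-NB. Genes of G1/S and DNA replication did not follow: of 47, 2, 4, 3 and 4 rose and 3, 3, 11 and 4 fell (6.38%, 6.38%, 23.4% and 8.51%), where 11.7%, 13.8%, 15.1% and 13.4% of all genes were called lower. GINS3 and MCM6, parts of the replicative helicase, fell with 10 µg/ml MWCNT by 0.32 and 0.25, with 100 µg/ml MWCNT by 0.40 and 0.25 and with 10 µg/ml TiO2-NB by 0.51 and 0.30. In the 100 µg/ml TiO2-NB series the polymerase-primase genes PRIM2 and POLA1 rose by 0.59 and 0.35. In medium 2 of the 47 rose, among them E2F2 (0.38), and 3 fell, among them GINS3 (-0.38), where 12.3% of all genes were called lower.

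**Figure D3:**
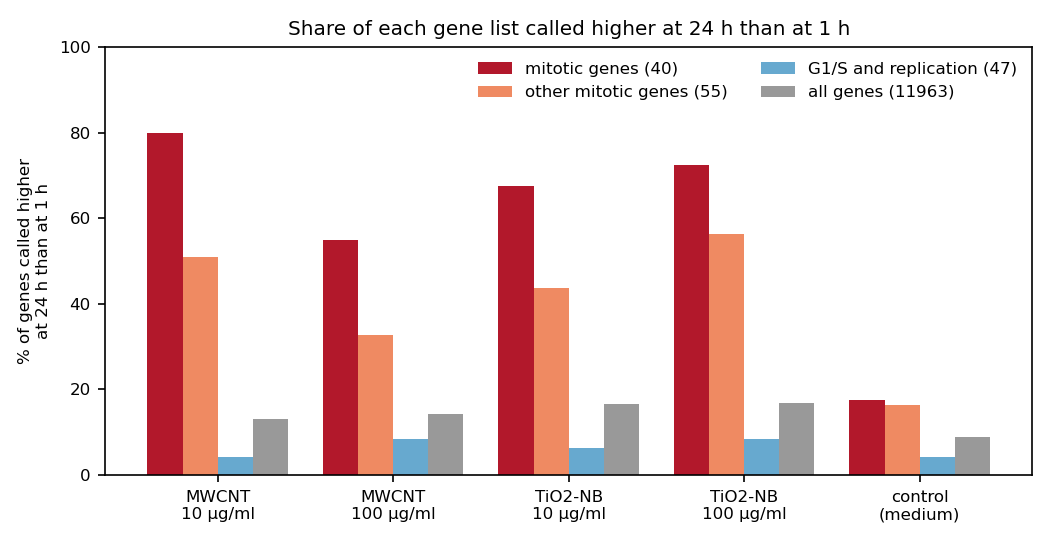
Percent of genes called higher at 24 h than at 1 h (limma adjusted p under 0.05) in each exposed series and in medium, for the 40 mitotic genes, 55 other mitotic genes, 47 G1/S and replication genes and all 11963 genes. The 40 genes stand highest in the exposed series, and the G1/S genes stand below the bar of all genes.

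Other lists of the pathway were small. Of a list of 12 DREAM, MuvB and NF-Y genes, 4, 3, 5 and 5 rose in the exposed series (25% to 41.7%, against 13.1% to 16.8% of all genes). In medium 1 fell (NFYA, a subunit of NF-Y, -0.17). RBL2, the pocket protein p130 of DREAM, rose by 0.29, 0.24, 0.38 and 0.30, and LIN37, a MuvB subunit needed for repression, by 0.33, 0.37, 0.38 and 0.39. Of 23 genes of cell cycle exit and CDK control, 8, 8, 9 and 8 rose and 4, 4, 5 and 4 fell, and in medium 8 rose and 2 fell. RBL2 is counted in this list as well as in the list of 12. The rises stand against 13.1% to 16.8% of all genes in the exposed series and 8.79% in medium. The falls, 17.4% to 21.7% of the list with particles and 8.70% in medium, stood near the share of all genes called lower. CDK7, the CDK-activating kinase, rose by 0.67, 0.61, 0.66 and 0.68 and by 0.42 in medium. CCNG2, a cyclin of arrested cells, rose by 0.76, 0.87, 0.89 and 0.87, and GADD45A, a stress-induced inhibitor, fell in medium by 0.74. Of 10 core subunits of the anaphase-promoting complex, 0, 0, 1 and 1 rose, 4 fell in each exposed series (40%, against 11.7% to 15.1% of all genes) and 3 fell in medium (30%, against 12.3%). ANAPC10 fell by 0.41, 0.53, 0.38 and 0.32 with particles and by 0.29 in medium, and CDC16 by 0.26, 0.25, 0.23 and 0.18 and by 0.20 in medium.

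At 1 h, some mitotic genes were lower in exposed wells than in medium. For 10 µg/ml MWCNT 10 of 40 fell (median -0.12), against 5.15% of all genes, and with 100 µg/ml MWCNT 6 fell (median -0.09), against 5.65%, while 1 rose, against 3.79%. With TiO2-NB 3 fell at 10 µg/ml (median -0.03), against 6.50%, and 7 at 100 µg/ml (median -0.09), against 7.44%. None rose in the other 3 exposures, against 2.71% of all genes with 10 µg/ml MWCNT and 3.02% and 3.07% with 10 and 100 µg/ml TiO2-NB. The share with 10 µg/ml TiO2-NB was near the background. These 4 comparisons share the 3 control arrays, so their calls are not independent. Every exposed array lay below every control array for 15, 8, 5 and 8 of the 40, against 16%, 13.5%, 13.8% and 16% of all genes. Only the count with 10 µg/ml MWCNT stood well above its share. Those with 100 µg/ml MWCNT and 100 µg/ml TiO2-NB were near the background, and that with 10 µg/ml TiO2-NB was at it. Every exposed array lay above for 1, 1, 1 and 0, against 9.72%, 9.72%, 10.7% and 10.3%. Of the 40 genes, 29 were lower in none, 4 in 1, 2 in 2, 2 in 3 and 3 in all 4 comparisons, where 2.49% of all genes were lower in all 4. The limma F-test over the 5 groups at 1 h called 6 members (AURKA, KIF20A, HMMR, UBE2C, CDC25C and PTTG1), where 10.2% of all genes were called. That count was not far from the share of all genes.

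KIF20A, HMMR and AURKA were lower in all 4 exposures. KIF20A lay between 7.54 and 7.72 on the 12 exposed arrays, below every control array, at 7.93, 7.85 and 7.999. Its log2 changes were -0.35, -0.28, -0.24 and -0.31 (each ± 0.064, adjusted p = 0.00137, 0.00693, 0.0227 and 0.00233). HMMR read 8.83, 8.84 and 8.83 with 100 µg/ml MWCNT and 8.87, 8.74 and 8.88 with 10 µg/ml TiO2-NB, against 9.15, 8.98 and 9.18 in controls. It fell by 0.28, 0.27, 0.28 and 0.29 (each ± 0.062, adjusted p = 0.00659, 0.00738, 0.00583 and 0.00373), with no overlap. Its other probe set fell by 0.35, 0.33, 0.36 and 0.41 and passed in each. AURKA read 10.21, 10.23 and 10.26 with 10 µg/ml MWCNT, 10.32, 10.18 and 10.17 with 100 µg/ml MWCNT, 10.34, 10.32 and 10.28 with 10 µg/ml TiO2-NB and 10.23, 10.23 and 10.37 with 100 µg/ml TiO2-NB, against 10.48, 10.41 and 10.53 in controls. It fell by 0.24, 0.25, 0.16 and 0.19 (each ± 0.049, adjusted p = 0.00341, 0.00215, 0.0442 and 0.0128). A dimmer AURKA probe set read 9.65 to 9.82 on the exposed arrays, below the controls at 9.96, 9.85 and 9.97. The dimmest read 5.45 to 5.76, overlapping the controls at 5.80, 5.48 and 5.64.

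**Figure D4:**
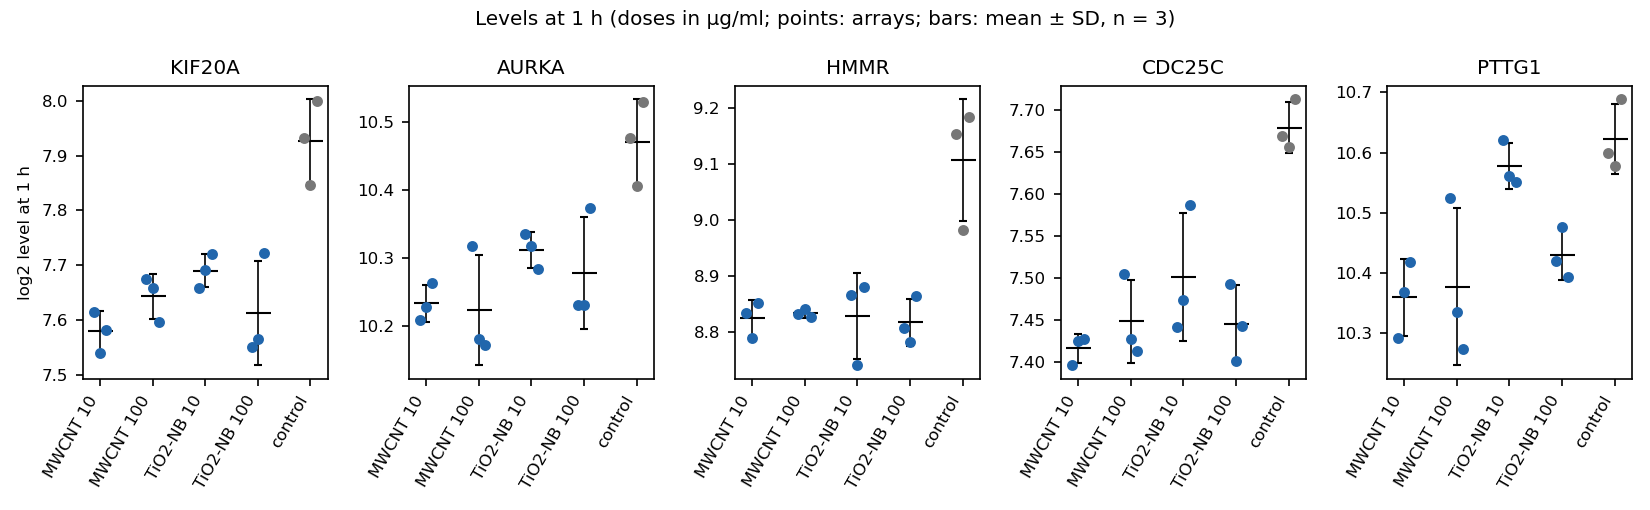
Log2 levels at 1 h of the 5 genes called in 3 or more comparisons with control, each by its brightest probe set. Points are arrays and bars are the mean and SD (n = 3). KIF20A, AURKA, HMMR and CDC25C lie lower on every exposed array than on every control array, and PTTG1 does so in all but the 10 µg/ml TiO2-NB group.

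CDC25C and PTTG1 were lower in 3 exposures by their brightest probe sets. CDC25C read 7.40, 7.43 and 7.43 with 10 µg/ml MWCNT, 7.50, 7.43 and 7.41 with 100 µg/ml MWCNT, 7.44, 7.47 and 7.59 with 10 µg/ml TiO2-NB and 7.49, 7.40 and 7.44 with 100 µg/ml TiO2-NB, against 7.67, 7.66 and 7.71 in controls. It fell by 0.26, 0.23 and 0.23 (each ± 0.057, adjusted p = 0.00534, 0.0121 and 0.00977) except with 10 µg/ml TiO2-NB, where the value was -0.18 (adjusted p = 0.0543). The dimmer CDC25C probe sets overlapped the controls. One read 5.27 to 5.68 on the exposed arrays, against 5.74, 5.39 and 5.65 in controls. The other read 4.63 to 5.27, against 5.08, 5.04 and 4.91. PTTG1 read 10.29, 10.37 and 10.42 with 10 µg/ml MWCNT, 10.52, 10.33 and 10.27 with 100 µg/ml MWCNT, 10.62, 10.56 and 10.55 with 10 µg/ml TiO2-NB and 10.42, 10.48 and 10.39 with 100 µg/ml TiO2-NB, against 10.60, 10.58 and 10.69 in controls. It fell by 0.26, 0.25 and 0.19 (each ± 0.058, adjusted p = 0.00632, 0.00922 and 0.0385), and read -0.04 with 10 µg/ml TiO2-NB, where the arrays overlapped the controls (adjusted p = 0.731). The other calls were CKS2 and UBE2C in 2 comparisons each, and AURKB, CDC20, BUB1B and TTK in 1 each. MKI67 was the 1 rise, with 100 µg/ml MWCNT: it read 7.85, 7.97 and 7.87, against 7.60, 7.56 and 7.58 in controls, a change of 0.32 ± 0.097 (adjusted p = 0.0449). This call was lost in 10 of 13 alternatives, and the value was 0.12 with the 18S covariate (adjusted p = 0.741). Several falls were as fragile: of 13 alternatives, BUB1B lost its call in 10, CKS2 in 9 for both exposures, and CDC20 and TTK in 8. AURKB lost it in 7 and UBE2C in 6 for both exposures. With 10 µg/ml TiO2-NB, AURKA lost it in 8, KIF20A in 7 and HMMR in 1. KIF20A with 10 µg/ml MWCNT lost it in 1.

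These 1 h counts depended on single arrays and on the fit. The 10 µg/ml MWCNT count of 10 became 5 without control replicate 1, 6 without control replicate 3, and 4, 6 and 5 without MWCNT replicates 1, 2 and 3. The 100 µg/ml MWCNT count of 7 became 3 without MWCNT replicate 3. The 10 µg/ml TiO2-NB count of 3 became 1 without control replicate 1 or 3 or TiO2-NB replicate 1 or 2. The 100 µg/ml TiO2-NB count of 7 became 4 and 3 without control replicates 1 and 3, and 3 and 2 without TiO2-NB replicates 1 and 2. The F-test count of 6 became 1 without control replicate 3 and 10 without replicate 1 of 100 µg/ml MWCNT. The exposed arrays also stood higher in 18S, by 1.17, 1.51, 0.84 and 0.80 (exact permutation p = 0.1, 0.1, 0.4 and 0.1). When 18S entered the fit, 3, 0, 1 and 3 genes were called, and in a fit of the compared groups alone none was.

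In the other lists at 1 h, the share of genes that fell is read against 5.15%, 5.65%, 6.50% and 7.44% of all genes. Of the 55 other mitotic genes, 2, 1, 1 and 1 rose and 2, 2, 0 and 5 fell (3.64%, 3.64%, 0% and 9.09%). KPNA2, an importin, rose by 0.15, 0.19, 0.16 and 0.17, CDKN3 fell by 0.30 with 10 µg/ml MWCNT and by 0.29 with 100 µg/ml TiO2-NB, and MAD1L1, a checkpoint protein, by 0.35 with 100 µg/ml MWCNT. Of the 47 G1/S genes, 0, 0, 3 and 0 rose and 2, 3, 0 and 3 fell (4.26%, 6.38%, 0% and 6.38%). PRIM1, a primase subunit, fell by 0.18, 0.22 and 0.24 outside 10 µg/ml TiO2-NB, where MCM6 (0.24) and CCNE1, the G1 cyclin (0.21), rose. RFC4, ORC1 and RPA3 fell once each, by 0.23, 0.40 and 0.16. Of the 23 genes of cell cycle exit and CDK control, 0, 1, 2 and 1 rose and 3, 2, 3 and 2 fell (13%, 8.70%, 13% and 8.70%). CDK7 fell in all 4, by 0.25, 0.24, 0.25 and 0.30, BTG1 by 0.26 and 0.20 with 10 µg/ml MWCNT and 100 µg/ml TiO2-NB, and CCND1, a G1 cyclin, rose by 0.28 with 100 µg/ml MWCNT. Of the 12 DREAM, MuvB and NF-Y genes 0, 0, 1 and 1 rose and 2, 1, 3 and 2 fell (16.7%, 8.33%, 25% and 16.7%). LIN37 fell in all 4, by 0.25, 0.31, 0.37 and 0.29. NFYA, of NF-Y, fell in 3, by 0.20, 0.27 and 0.29, and RBL2, by 0.21, with 10 µg/ml TiO2-NB. Of the anaphase-promoting complex subunits ANAPC10 rose by 0.26 with 100 µg/ml MWCNT and CDC23 fell by 0.19 with 100 µg/ml TiO2-NB.

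At 24 h against the control of that time, limma called no mitotic gene in any exposure. All genes called higher made up 0%, 0%, 0.0167% and 0.853% with 10 and 100 µg/ml MWCNT and 10 and 100 µg/ml TiO2-NB, in this order, and those called lower 0%, 0.00836%, 0.0334% and 2.30%. At an unadjusted p under 0.05, 15, 2, 15 and 14 members were higher, and 0, 0, 0 and 1 lower. The median changes were 0.12, 0.03, 0.12 and 0.12, where the median of all genes was 0.01 or less. By sign, 40, 27, 38 and 39 of the 40 genes had a value above 0. The shares of all genes by sign and at the unadjusted threshold are not given here. No excess over all genes is therefore read from these counts. Every exposed array was above every control array for 17, 8, 16 and 20 of the 40, against 6.75%, 7.60%, 8.46% and 14.1% of all genes. These 4 comparisons also share their 3 control arrays. The smallest adjusted p was 0.0742, for CKS2 with 100 µg/ml TiO2-NB (0.21 ± 0.065), where its arrays read 10.20, 10.18 and 10.30, against 10.02, 10.03 and 9.98 in controls. One call appeared without replicate 1 of 100 µg/ml TiO2-NB. The F-test at 24 h called 0 members, where 2.77% of all genes were called. Its unadjusted p was under 0.05 for 11 of the 40 members and for 1383 of the 11963 genes. Without replicate 1 of 10 µg/ml or of 100 µg/ml TiO2-NB the F-test called 1 member. Of the second mitotic list, KIF22, a chromosome-arm kinesin, rose by 0.22 with 100 µg/ml TiO2-NB (adjusted p = 0.0214).

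Dose and particle made no difference that passed for these genes. For 100 against 10 µg/ml, limma called 0 of 40 in all 4 comparisons, where at most 0.1% of genes were called higher and 1.52% lower, both with TiO2-NB at 24 h. At an unadjusted p under 0.05, 4 were higher with MWCNT and 3 lower with TiO2-NB at 1 h, and 5 were lower with MWCNT and 1 higher and 1 lower with TiO2-NB at 24 h. KIF14 came nearest, at -0.40 with TiO2-NB at 24 h (95% interval -0.63 to -0.17, adjusted p = 0.079). For MWCNT against TiO2-NB, limma called 0 of 40 at either dose and time, where at most 1.82% of genes were called higher and 0.869% lower, both at 100 µg/ml and 24 h. The shares were 0.0502% higher and 0.0251% lower at 10 µg/ml and 1 h, 0.0251% higher and 0.0167% lower at 10 µg/ml and 24 h, and 0% at 100 µg/ml and 1 h. At an unadjusted p under 0.05, 10 were lower with MWCNT at 10 µg/ml and 1 h and 7 at 100 µg/ml and 24 h, with 0 in the other comparisons. For dose and particle alike, the shares of all genes at the unadjusted threshold are not given here. No excess over all genes is read from those counts. UBE2C differed by -0.20 at 10 µg/ml and 1 h (95% interval -0.30 to -0.09, adjusted p = 0.119). One call appeared in the dose comparisons without replicate 1 of 100 µg/ml TiO2-NB at 24 h, and one in the particle comparisons without that array or replicate 2 of 10 µg/ml TiO2-NB at 24 h. Such misses do not show that the particles or doses act alike.

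The change between exposed and control wells differed between the times for some members. The test of this difference (exposed minus control at 24 h, less the same at 1 h) called 8 of 40 genes with 10 µg/ml MWCNT, against 1.75% of all genes, 3 with 100 µg/ml MWCNT, against 1.97%, 4 with 10 µg/ml TiO2-NB, against 3.68%, and 8 with 100 µg/ml TiO2-NB, against 4.41%. Each was a higher value at 24 h. By brightest probe set, 0 members were called the other way, against 0.602%, 1.40%, 0.986% and 2.09% of all genes. The dimmer TOP2A probe set was called the other way with 100 µg/ml TiO2-NB, at -1.31 ± 0.27 (limma adjusted p = 0.003875). A dimmer probe set of AURKA and that of HMMR were called higher in all 4, and 1 of CDK1 with 100 µg/ml TiO2-NB. The 4 tests share all 6 control arrays. KIF20A passed in all 4, by 0.53, 0.42, 0.39 and 0.43 (each ± 0.090), as did HMMR, by 0.38, 0.40, 0.45 and 0.48 (each ± 0.088), and AURKA, by 0.36, 0.30, 0.26 and 0.28 (each ± 0.069). CDC25C passed in 2, and CENPA, CDC20, UBE2C, PTTG1, CKS2, AURKB, BUB1, NDC80 and DLGAP5 in 1 each. The total of 23 calls fell to 12 without control replicate 3 at 1 h and to 12 without control replicate 3 at 24 h. It was 10 in fits of the compared groups alone and 16 with the 18S covariate. Under that covariate KIF20A, HMMR and AURKA all missed the threshold with 100 µg/ml MWCNT (adjusted p = 0.0902, 0.171 and 0.135), as did HMMR with 10 µg/ml MWCNT (adjusted p = 0.0858).

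**Figure D5:**
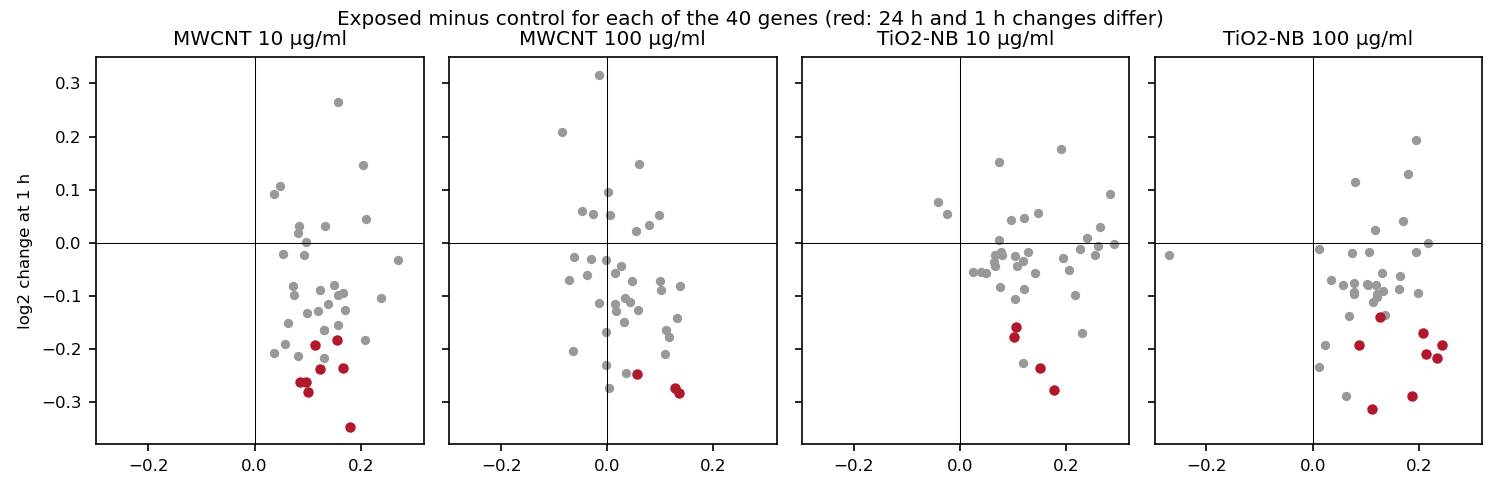
Log2 change of each of the 40 genes between exposed and control wells at 24 h (horizontal) and at 1 h (vertical), by exposure. Red points are genes for which the 2 changes differ (8, 3, 4 and 8), and they lie below 0 at 1 h. The 24 h changes of most genes lie above 0 without passing the test. The share of all genes above 0 is not given here, so no excess is read from this.

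Of the lists beside the members, the same test called 4 of the 55 other mitotic genes with 100 µg/ml TiO2-NB. These were led by CKS1B (0.20) and SPAG5 (0.33), and 0 were called in the other exposures. It called 3 of the 47 G1/S genes with 100 µg/ml TiO2-NB, led by PRIM1 (0.28) and RFC4 (0.36), and 0 elsewhere. With that exposure 4.41% of all genes were called higher and 2.09% lower, and both counts stood near these shares. LIN37 passed in all 4, by 0.36, 0.41, 0.42 and 0.43, and NFYA with 10 and 100 µg/ml TiO2-NB (both 0.47). CDK7 passed in all 4, by 0.25, 0.20, 0.24 and 0.27, CCND1 with 100 µg/ml MWCNT (-0.32), RBL2 with 10 µg/ml TiO2-NB (0.27) and BTG1 with 100 µg/ml TiO2-NB (0.35).

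In medium alone, the 7 genes that rose at 24 h over 1 h were CDK1, NEK2, BUB1B, KIF20A, ASPM, RACGAP1 and TOP2A. TOP2A had the smallest adjusted p (0.00235), with 9.33, 9.51 and 9.29 at 24 h, against 8.99, 9.01 and 9.06 at 1 h. ASPM read 7.94, 8.10 and 7.99 at 24 h, against 7.73, 7.49 and 7.71 at 1 h. CDC25C and PTTG1, lower in 3 exposures at 1 h, were not among them. CDC25C read 7.70, 7.64 and 7.80 at 24 h, against 7.67, 7.66 and 7.71 at 1 h, and PTTG1 10.76, 10.72 and 10.64 at 24 h, against 10.60, 10.58 and 10.69 at 1 h, both with overlap. The 7 genes called had every 24 h array above every 1 h array. The count of 7 became 1 without control replicate 2 at 1 h and 1 without control replicate 2 at 24 h.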

How the data were processed

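Each sample is 1 Affymetrix array. The authors deposited log2 levels, 1 per probe set and array, computed by RMA according to the labels and the submitters' processing notes. Its version and the chip definition are not stated. RMA's quantile step makes each change relative to the other transcripts. The values were used as deposited, and arrays have no read depth, so precision rests on 3 arrays per group. In R 4.3.3, limma 3.58.1 fitted a mean per group over all 30 arrays (20 residual and 3.685 prior degrees of freedom), with two-sided contrasts, Benjamini-Hochberg adjustment over 22215 probe sets within each comparison and calls at an adjusted p under 0.05. The fit was tested on simulated data. Genes were named from the platform annotation where a probe set had 1 symbol. Against control, full statistics were planned for members called in 3 or more of 8 comparisons and for the 4 smallest p per comparison. Between the times, log2 changes are given for nearly all members. Levels, errors or adjusted p are also given for some members outside that rule. From the other lists the 2 called genes with the smallest p are named. The members and lists were chosen with earlier results of these data known. Replicate numbers did not pair the samples: in 0 of 21 pairs of groups did every same-numbered pair correlate above 0.1 (-0.22 to 0.21). Alternatives were the compared groups alone, a replicate block, a filter on the lowest 1 in 3 probe sets, a second quantile step, trended robust variances, array weights, any probe set of a gene, each array left out, and, after seeing the data, the 18S level as a covariate. The counts at 24 h against 1 h for each exposure were also split out after seeing the data.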

Additional observations from a re-analysis of the deposited data

Results flagged for a closer look

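The results listed here are the genes for which the difference between exposed and control wells at 24 h was unlike that at 1 h, by limma's test of the difference itself. Each value is the 24 h difference less the 1 h difference on the log2 scale, from 3 arrays in each of 4 groups. Every gene stands by its brightest probe set. For 10 µg/ml MWCNT the values were 0.53 for KIF20A, 0.40 for CDC20, 0.38 for HMMR, 0.36 for AURKA, 0.36 for PTTG1, 0.35 for CDC25C, 0.34 for CENPA and 0.31 for UBE2C. For 100 µg/ml MWCNT they were 0.42 for KIF20A, 0.40 for HMMR and 0.30 for AURKA. For 10 µg/ml TiO2-NB they were 0.45 for HMMR, 0.39 for KIF20A, 0.28 for CDC25C and 0.26 for AURKA. For 100 µg/ml TiO2-NB they were 0.48 for HMMR, 0.45 for BUB1, 0.44 for DLGAP5, 0.43 for KIF20A, 0.42 for CKS2, 0.38 for NDC80, 0.28 for AURKA and 0.27 for AURKB. Under the alternatives and with each array left out, KIF20A and AURKA with 10 µg/ml MWCNT and KIF20A, HMMR and CKS2 with 100 µg/ml TiO2-NB passed in all 19 settings. NDC80 lost its call in 14 of 19 (limma adjusted p 0.0156 to 0.136). CDC25C with 10 µg/ml TiO2-NB lost it in 13 of 19 and CENPA with 10 µg/ml MWCNT in 11. The remaining results lost it in 1 to 9 settings, the most being CDC25C with 10 µg/ml MWCNT and AURKB with 100 µg/ml TiO2-NB.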

How the results depend on the processing

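Through its brightest probe set, no called member changed sign under the second quantile step, array weights, 18S covariate or left-out arrays. This held against control, between the times and in the difference between the times. The compared groups alone, the replicate block, the filter and trended robust variances leave each log2 change as it was. No sign could move under those settings. Through another probe set, TOP2A with 100 µg/ml TiO2-NB was lower at 24 h than at 1 h (-1.08), the opposite of its brightest one (0.54). For the difference between the times in that exposure, that probe set was also called lower (-1.31). The brightest one was not called there (0.19). The counts of genes higher at 24 h than at 1 h in exposed wells stayed within 1.5 times: 110 calls in the 4 series together, 101 with the compared groups alone, 104 with the 18S covariate and 103 to 113 with an array left out (29 to 32, 17 to 21, 24 to 26 and 24 to 32 by series). The 1 h counts against control (10, 7, 3 and 7, for 10 and 100 µg/ml MWCNT and 10 and 100 µg/ml TiO2-NB) became 0, 0, 0 and 0 in fits of the compared groups alone, which leave 4 residual degrees of freedom, and 3, 0, 1 and 3 with the 18S covariate. They ranged over 4 to 8, 3 to 8, 1 to 3 and 2 to 8 with an array left out. The F-test count at 1 h (6) became 1 with the 18S covariate and 3 with the compared groups alone, and ranged from 1 to 10. The 24 h control comparisons stayed at 0, except for 100 µg/ml TiO2-NB, with 1 after the filter on dim probe sets, 1 with trended robust variances, 1 with any probe set, 5 with array weights and 0 to 1 with an array left out. The dose comparisons gave 1 under those first 3 and with array weights, the particle comparisons 1 with array weights and 1 with any probe set, and the F-test at 24 h 1 with trended robust variances, array weights or any probe set; each ranged over 0 to 1 with an array left out. The rises in medium (7) became 3 with the compared groups alone and ranged from 1 to 8. The 23 calls of a difference between the times became 10 with the compared groups alone and ranged from 12 to 30. The cause of these moves was not tested. The replicate block gave 9, 7, 4 and 5 calls at 1 h, 0 in each comparison at 24 h, 108 in the exposed series, 7 in medium and 23 for the difference between the times, and moved no count by over 1.5 times; the numbers share no pairing in the labels.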
